A study of Mus musculus with 444 samples.

Results

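Ligands, an extracellular antagonist and receptors of the transforming growth factor-beta (TGF-β) family were examined in individual epithelial cells of the mouse mammary gland. The 10 genes were Inhba and Inhbb, which encode the activin beta-A and beta-B subunits, Tgfb1, Tgfb2, Tgfb3 and Bmp7, which encode further ligands, Fst, which encodes follistatin, and Tgfbr1, Tgfbr2 and Tgfbr3, which encode receptors. They were chosen by name and matched through the Entrez gene number that heads each row of the count files, and all 10 were found among the 25136 genes used. Each count file held 1 cell, and 323 of 444 cells had at least 100000 read pairs and at least 1500 detected genes and were retained. These comprised 171 pubertal and 152 adult cells.

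Total epithelium was sorted from mammary glands of untreated female FVB/NJ mice, an inbred strain, at puberty (5 weeks of age) and in adulthood (10 weeks). Glands of 6 pubertal or 4 adult mice were pooled for a sort in 3 experiments. The sort was set to exclude blood and endothelial cells. The labels name no transgene, mutant allele or treatment for either stage. Cells were captured on the Fluidigm C1, a microfluidic device with 1 chamber for each cell, where cDNA was made and amplified before Nextera XT library preparation. The labels tie no cell to an animal, a sort or a capture run. The stages thus count as 1 sample each, and no p-value or standard error was calculated. Intervals given below cover counting error only, and because the reads carried no molecular identifiers, read pairs were not independent molecules.

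Activins are dimers of the inhibin beta subunits and bind an activin type II receptor together with the type I receptor encoded by Acvr1b. Follistatin binds activins outside the cell and blocks them. TGF-β ligands bind the type II receptor Tgfbr2, which then activates the type I receptor Tgfbr1, whereas Tgfbr3 (betaglycan) is a co-receptor without a kinase that presents ligand, in particular that of Tgfb2. In the mammary gland, activin signalling has been tied to ductal elongation and alveolar development, and TGF-β to the restraint of ductal growth.

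The activin subunit genes lie on different chromosomes. Inhba spans chr13:16004256-16031609 and Inhbb chr1:119415463-119422248 (GRCm38.p6, the mm10 assembly used for the counts). On the same assembly the other ligand genes are Tgfb1 (chr7:25687002-25705077), Tgfb2 (chr1:186622787-186709697), Tgfb3 (chr12:86056743-86079041) and Bmp7 (chr2:172868012-172940321). Fst lies at chr13:114452262-114458989, and the receptor genes are Tgfbr1 (chr4:47353222-47414926), Tgfbr2 (chr9:116087695-116175363) and Tgfbr3 (chr5:107106567-107289629). Their promoter windows, 250 bases before to 50 after a transcript start as listed by RefSeq, are shown because the products of Inhba and Inhbb form the same type of ligand, whereas Inhba differed far more between the stages than Inhbb. The Inhba window (chr13:16011601-16011900, plus strand, 47.7% G or C) belongs to a start inside the span of the gene, and the Inhbb window (chr1:119422199-119422498, minus strand) held 64.3% G or C. Capitals mark the letters TATAAA, and both sequences run 5′ to 3′ on the strand of the gene.
Inhba: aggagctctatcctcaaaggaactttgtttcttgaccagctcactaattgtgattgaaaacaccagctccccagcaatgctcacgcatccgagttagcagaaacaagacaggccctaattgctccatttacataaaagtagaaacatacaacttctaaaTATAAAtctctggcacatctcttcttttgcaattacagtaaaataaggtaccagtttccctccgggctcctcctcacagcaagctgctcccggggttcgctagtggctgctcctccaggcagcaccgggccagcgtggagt
Inhbb: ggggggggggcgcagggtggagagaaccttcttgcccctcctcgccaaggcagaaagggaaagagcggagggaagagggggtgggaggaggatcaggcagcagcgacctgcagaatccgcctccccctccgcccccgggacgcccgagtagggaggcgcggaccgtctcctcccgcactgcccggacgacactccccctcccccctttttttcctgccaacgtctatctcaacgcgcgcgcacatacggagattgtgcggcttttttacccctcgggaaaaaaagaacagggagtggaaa
TATAAA was found 91 bases before the start in the Inhba window, was not found on either strand of the Inhbb window, and occurred on either strand in 13.6% of 32851 windows of that length. TGACGTCA (1.79% of windows), TGANTCA (7.81%), TGTTTAC (3.65%), GTCTAGAC (0.213%) and the estrogen response element (0.0700%) were in neither window. RefSeq windows were held for 6 of the 10 members, and of the others only Tgfb2 had one of these motifs (TATAAA, 31 bases before the start). Both strands were searched, and none of the motifs contains another.

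For each retained cell, counts were drawn down at random to 100000 read pairs, so that each read adds 10 to the gene's CPM, the usual unit relative to the library total, and a cell counts as having a gene when at least 1 read is left. Before that, retained cells held a median of 309941 read pairs at puberty and 331034 in the adult. Cells were placed in classes by fixed markers, none of which is a member: basal-marker cells (37 pubertal, 73 adult), progenitor-marker luminal cells (25 and 28), hormone-sensing-marker luminal cells (93 and 31) and mixed-marker cells between the limits (16 and 20). The classes are ranges of a score and not types, and 37 cells lay within 0.5 log2 units of the limits of the basal-marker or luminal-marker class, while 9 luminal-marker cells lay as near the limit that splits that class. Summed over 12 basal markers, the median cell held 14170 CPM in pubertal and 30890 CPM in adult basal-marker cells, against 10.0 and 180 CPM in hormone-sensing-marker cells. Hormone-sensing markers summed to a median of 5810 and 12160 CPM in the class of that name and to at most 505 CPM in the basal-marker and progenitor-marker classes of either stage, although none of these markers was among the 10 genes leading that class by fold. At least 1 of 6 epithelial genes was detected in 320 of the 323 cells.

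Cells did not form a uniform set within a stage. The 107 retained adult cells with title numbers 48 to 188 stood apart from the other 45: their median sum of basal markers was 12910 CPM against 190 CPM, and 56.1% against 28.9% were basal-marker cells. The 35 retained pubertal cells numbered 141 to 180 were sequenced more deeply (median 647764 read pairs) than the other 136 (290738). What these numbers mark is not stated, so values are given with and without these cells where they decide a result. Among 8 members detected in at least 5% of either adult set, 5 were at least 2-fold higher in cells 48 to 188 (Inhbb, Tgfb2, Bmp7, Fst and Tgfbr1), where 29.2% of 10261 genes were, and Tgfbr2 was at least 2-fold higher in the others, where 24.3% of genes were. At least 3 of 10 fibroblast markers were detected in 44 cells (26 pubertal, 18 adult), with a sum over these markers from 0 to 51260 CPM at puberty and from 0 to 41340 CPM in the adult; none of the 10 fibroblast markers was at 0 in every cell. Their part in the results was not tested, and values without these 44 cells are given where they differ. Although the sort was set to exclude endothelial cells, at least 3 of 8 endothelial markers were detected in 11 cells (8 pubertal, 3 adult). At least 3 of 6 pericyte markers were detected in 11 cells (8 pubertal, 3 adult). The part of cells with endothelial or pericyte markers was not tested, and no values without them are given.

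Scaled by transcript length, as RPKM (CPM divided by the length in kilobases), Fst was the most abundant member at both stages (229 RPKM at puberty, 170 in the adult), followed by Tgfbr3 (96.7 and 71.3). At puberty Inhba came next with 43.6 RPKM, ahead of Tgfbr2 (18.9), Tgfb3 (17.5) and Tgfbr1 (9.49), and Bmp7, Inhbb, Tgfb2 and Tgfb1 were below 4. In the adult, Tgfbr2 (18.5), Tgfbr1 (17.2), Tgfb3 (14.9), Tgfb2 (7.66), Bmp7 (7.42) and Inhbb (3.15) preceded Inhba (0.0861) and Tgfb1 (0). Neighbours whose counting intervals overlapped were Tgfbr2 and Tgfb3 as well as Bmp7, Inhbb and Tgfb2 at puberty, and Tgfbr2 and Tgfbr1, Tgfb2 and Bmp7, and Inhba and Tgfb1 in the adult. Inhba thus stood in the third place at puberty and in the ninth place of this order in the adult.

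**Figure D1:**
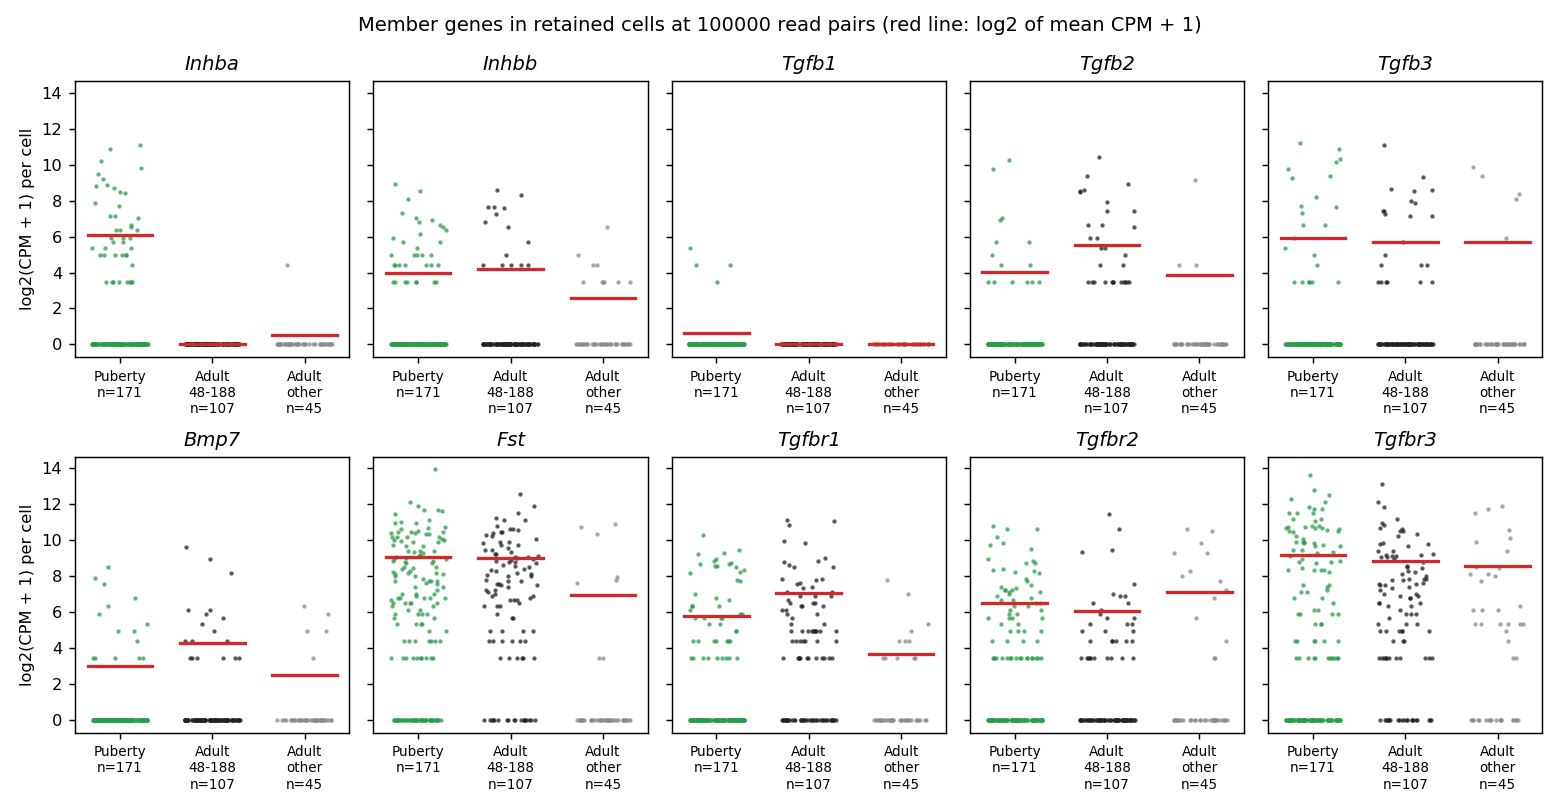
Level of each member in each retained cell, as log2(CPM + 1) at 100000 read pairs, for 171 pubertal cells, 107 adult cells numbered 48 to 188 and the 45 other adult cells. Points are cells and red lines are the log2 of the mean CPM plus 1; Inhba points above 0 lie almost wholly in the pubertal cells, whereas Fst and Tgfbr1 lie lower in the other adult cells than in those numbered 48 to 188.

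The first question was which members differed between puberty and adulthood. Among the 9 members that were found in 5% or more of pubertal or of adult cells, 1 was at least 2-fold higher in mean CPM at puberty (Inhba), where 20.6% of 10662 genes were, and 1 was at least 2-fold higher in the adult (Tgfb2), where 14.1% of genes were. Over these 9 members the log2 ratios had a median of 0.14, and over all genes tested of 0.11. In this comparison neither count of members exceeded the share over all genes, and the differences lay in single members. The median of signed ratios does not measure how far apart the stages were. Against the other adult cells alone, 4 of 9 members (Inhba, Inhbb, Fst and Tgfbr1) were at least 2-fold higher at puberty, where 32.4% of genes were, and against adult cells 48 to 188 alone, 3 of 9 (Tgfb2, Bmp7 and Tgfbr1) were at least 2-fold higher in the adult, where 15.0% were.

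Inhba, the activin beta-A subunit, was detected in 44 of 171 pubertal cells (25.7%, exact 95% interval 19.4% to 33.0%) and in 1 of 152 adult cells (0.658%). Across the pubertal cells, the lowest and median values were 0 and the highest was 2150 CPM, and among the 44 cells with a read the median was 60.0 CPM. In the adult, the lone cell with a read held 20.0 CPM. Most pubertal cells thus had no Inhba read, and their values overlapped those of the adult cells at 0.

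The mean was 66.7 CPM at puberty (1140 reads) and 0.132 CPM in the adult (2 reads), a ratio with a counting interval of 140-fold to 4189-fold. The highest pubertal cell held 18.9% of the reads, and the log2 ratio went from 5.90 to 5.79 once the top cell of either stage was left out. No read was found in the 107 adult cells numbered 48 to 188, which at 3 counts of the total allows a share of up to 2.80% of cells with a read, and against a floor of 3 reads over these cells the pubertal mean was at least 238-fold higher.

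Detection of Inhba was uneven along the numbered pubertal cells. It was found in 21 of the 35 cells numbered 141 to 180 (60.0%) and in 23 of the other 136 (16.9%), with means of 159 and 42.9 CPM. Without the 35 cells the log2 ratio of puberty over adult was 5.28. Pubertal cells with an Inhba read had been sequenced to a median of 474976 read pairs and those without to 299035, and they held a median of 3209 against 2688 genes at equal depth; the part of depth and gene number in the detection of Inhba was not tested.

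**Figure D2:**
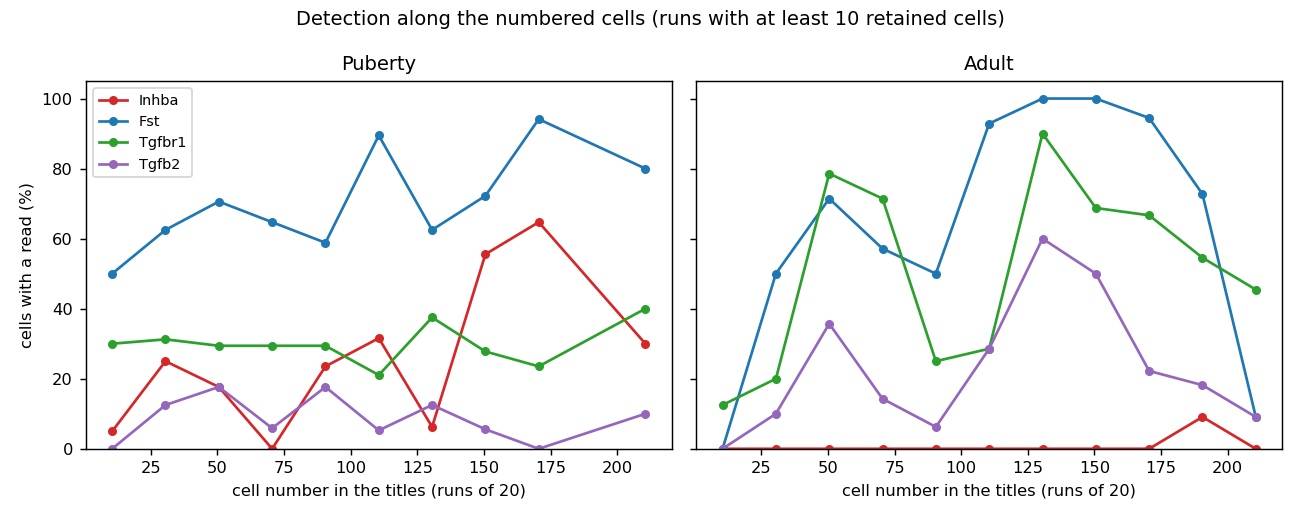
Share of retained cells with a read of Inhba, Fst, Tgfbr1 or Tgfb2 along the cell numbers in the titles, in runs of 20 numbers that hold at least 10 retained cells. Inhba is highest in the pubertal runs from 141 to 180 and at or near 0 along the adult numbers, and Fst, Tgfbr1 and Tgfb2 vary more between adult runs than between pubertal runs.

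Inhbb, the activin beta-B subunit, was found in 35 pubertal cells (20.5%) and 25 adult cells (16.4%), with highest values of 480 and 380 CPM and means of 14.9 and 13.4 CPM (ratio 1.11, counting interval 0.921 to 1.34). The adult mean was 17.0 CPM in cells 48 to 188 and 4.89 CPM in the others. The share of cells went the other way, with a read in 14.0% of cells 48 to 188 and 22.2% of the others. Thus Inhbb did not differ between the stages beyond counting error as a whole, and the log2 ratio of puberty over adult was -0.18 against the first adult set and 1.43 against the second.

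Tgfb1 was close to absent in these epithelial cells. It was seen in 4 pubertal cells with 9 reads in all and at most 40.0 CPM, and in 0 of 152 adult cells, which allows a share of up to 1.97%. It did not pass the filter on detection and was not counted in either direction.

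Tgfb2, whose product depends on the betaglycan co-receptor for efficient receptor binding, was detected in 15 pubertal cells (8.77%) and 34 adult cells (22.4%), with highest values of 1230 and 1370 CPM. Mean CPM was 15.0 at puberty and 36.2 in the adult (log2 ratio -1.21, 2.41-fold higher in the adult with a counting interval of 2.07 to 2.80). The excess lay in adult cells 48 to 188 (45.7 CPM, 31 of 107 cells), because the other adult cells had a mean of 13.6 CPM, of which 93.4% came from 1 cell. Against those other cells the direction turned, to a log2 ratio of 0.14. Without pubertal cells 141 to 180, in which 1 read of Tgfb2 was seen, the pubertal mean was 18.8 CPM and no member was at least 2-fold higher in the adult.

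Tgfb3 was present in 23 pubertal (13.5%) and 28 adult cells (18.4%), reached 2400 and 2200 CPM, and had means of 59.2 and 50.6 CPM. Its adult mean was nearly the same in both adult sets (50.8 and 50.0 CPM). Of the TGF-β ligands it was the most abundant per length at either stage.

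Bmp7, a bone morphogenetic protein, was detected in 15 pubertal and 23 adult cells, with highest values of 360 and 790 CPM and means of 7.08 and 14.6 CPM. Its log2 ratio of -0.95 fell just short of the 2-fold limit that Tgfb2 passed. It lay at -1.29 against adult cells 48 to 188 and at 0.51 against the other adult cells, so its direction depended on the adult set.

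Fst, the antagonist of activins, was the most widespread member at puberty (121 of 171 cells, 70.8%) and was found in 97 of 152 adult cells (63.8%). The median pubertal cell held 90.0 CPM and the highest 15900 CPM, while the median adult cell held 70.0 CPM and the highest 6190 CPM. Means were 534 and 398 CPM, and the highest pubertal cell, which had at least 3 fibroblast markers, held 17.4% of the pubertal reads. In the adult, Fst was detected in 89 of the 107 cells numbered 48 to 188 (83.2%, mean 512 CPM) and in 8 of the other 45 (17.8%, mean 126 CPM). The pubertal mean was thus close to that of the first set (log2 ratio 0.06) and above that of the second (2.08), while the pubertal share lay between them.

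Tgfbr1, the type I receptor kinase of TGF-β, was found in 50 pubertal (29.2%) and 78 adult cells (51.3%), with highest values of 1240 and 2250 CPM. Means were 53.7 and 97.6 CPM (log2 ratio -0.85). The adult sets differed by 11.3-fold (134 CPM against 11.8 CPM), and puberty lay between them.

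Tgfbr2, the type II receptor that binds TGF-β directly, was detected in 71 pubertal (41.5%) and 50 adult cells (32.9%) and reached 1770 and 2780 CPM, with means of 90.5 and 88.5 CPM (log2 ratio 0.03). It was higher in the other adult cells (141 CPM) than in those numbered 48 to 188 (66.3 CPM). Tgfbr3 was present in 87 pubertal (50.9%) and 113 adult cells (74.3%), with medians of 10.0 and 65.0 CPM, highest values of 12610 and 9020 CPM and means of 585 and 432 CPM. More adult cells had Tgfbr3, whereas the mean was 1.35-fold higher at puberty (counting interval 1.31 to 1.40), so share and mean pointed in opposite directions.

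The share of basal-marker cells differed between the stages (21.6% of pubertal, 48.0% of adult cells), so a difference in the makeup of the cells and a difference within cells cannot be told apart in a stage mean. The members were therefore also compared between and within classes.

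**Figure D3:**
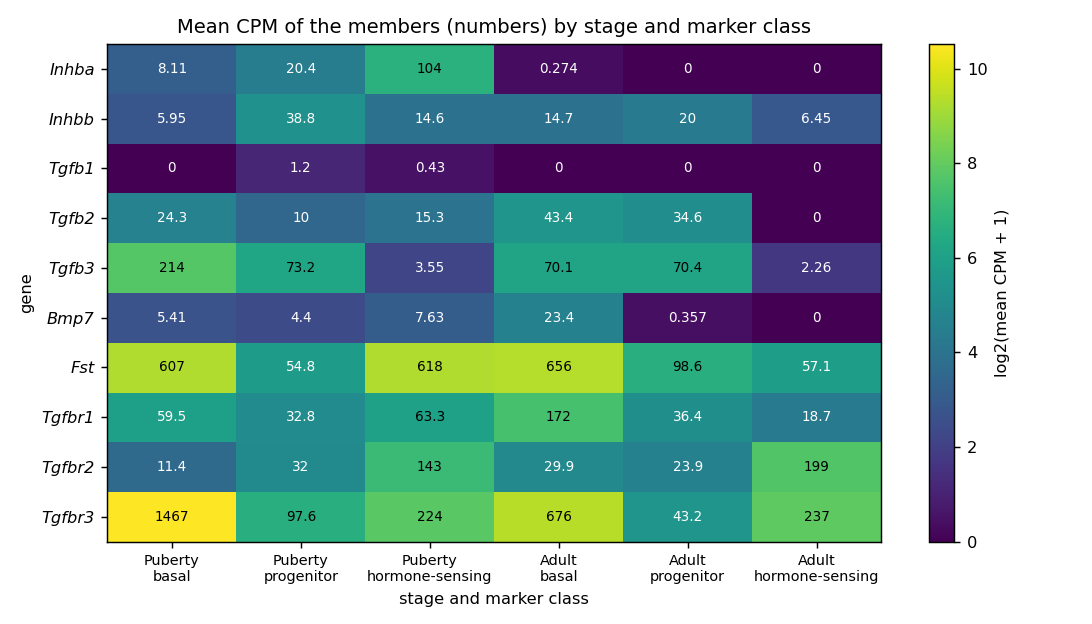
Mean CPM of each member (numbers) at 100000 read pairs for 3 marker classes at each stage, coloured by log2(mean CPM + 1). Inhba is highest in pubertal hormone-sensing-marker cells (104 CPM), Tgfbr3 in pubertal basal-marker cells (1467 CPM), and Tgfbr2 in the hormone-sensing-marker class of both stages (143 and 199 CPM).

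The next question was which cells made ligand and which held receptor. Over both stages, 5 of 9 members tested were at least 2-fold higher in basal-marker than in luminal-marker cells (Tgfb2, Tgfb3, Bmp7, Tgfbr1 and Tgfbr3), where 19.5% of 10700 genes were, and 2 were at least 2-fold higher in luminal-marker cells (Inhba and Tgfbr2), where 23.6% of genes were. The median log2 ratio of basal-marker over luminal-marker cells was 1.26 over the members and -0.09 over all genes tested. Within puberty alone, Tgfb3 and Tgfbr3 were the members higher in basal-marker cells (21.9% of genes) and Inhba, Inhbb and Tgfbr2 those higher in luminal-marker cells (29.6%). Within the adult alone, Tgfb2, Bmp7, Fst, Tgfbr1 and Tgfbr3 were higher in basal-marker cells (29.2% of genes) and Tgfbr2 in luminal-marker cells (25.5%). Tgfbr3 and Tgfbr2 thus kept opposite sides at both stages.

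Among the ligands, Inhba was a gene of pubertal luminal cells, and in level mainly of the hormone-sensing-marker class. It was found in 28 of 93 pubertal hormone-sensing-marker cells (30.1%), 5 of 25 progenitor-marker cells (20.0%) and 8 of 37 basal-marker cells (21.6%), and these shares overlapped in their exact intervals. All 8 basal-marker cells with a read were among the 12 of that class numbered 141 to 180, and the 25 others had no read. The levels differed more: the mean was 104 CPM in hormone-sensing-marker, 20.4 CPM in progenitor-marker and 8.11 CPM in basal-marker cells, with highest values of 2150, 230 and 80.0 CPM. Hormone-sensing-marker cells held 966 of the 1140 pubertal reads.

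In the adult, 0 of 31 hormone-sensing-marker cells had an Inhba read, which allows a share of up to 9.68%, and 0 of 28 progenitor-marker cells did. Within the class, the pubertal mean was at least 107-fold higher than a floor of 3 reads over the 31 adult cells. Outside the numbers 141 to 180, Inhba was found in 20 of 79 pubertal hormone-sensing-marker cells (25.3%, mean 70.8 CPM), and within them in 8 of 14 (57.1%, mean 291 CPM).

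In mean CPM, Inhbb was highest in progenitor-marker cells at both stages, with 38.8 CPM at puberty (6 of 25 cells, highest 480 CPM) and 20.0 CPM in the adult (8 of 28 cells, highest 200 CPM). The pubertal share of cells did not follow this order, as 31 of 118 luminal-marker cells had a read. Over both stages it was 2.29-fold higher in progenitor-marker than in hormone-sensing-marker cells (28.9 and 12.6 CPM), a comparison in which 17.7% of 10377 genes were at least 2-fold higher in the progenitor-marker class. A single pubertal cell held 49.5% of the progenitor-marker reads of that stage. Without it the pubertal progenitor-marker mean was 20.4 CPM, so the 2-fold difference between these luminal classes rested on that cell. In the adult the progenitor-marker mean was 13.3 CPM without its highest cell. Adult basal-marker cells had a mean of 14.7 CPM, or 9.58 CPM without their highest cell.

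Tgfb3 was a gene of basal-marker and progenitor-marker cells. In basal-marker cells it was detected in 9 of 37 pubertal cells (mean 214 CPM, highest 2400 CPM) and 14 of 73 adult cells (mean 70.1 CPM, highest 2200 CPM). In progenitor-marker cells it was found in 9 of 25 (36.0%, mean 73.2 CPM) and 9 of 28 (32.1%, mean 70.4 CPM), whereas hormone-sensing-marker cells had it in 4 of 93 and 2 of 31, with means of 3.55 and 2.26 CPM. Progenitor-marker cells exceeded hormone-sensing-marker cells by 22.2-fold over both stages (counting interval 16.0 to 31.6). The progenitor-marker level was therefore nearly equal at the stages and the basal-marker level was 3.05-fold higher at puberty.

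Tgfb2 was detected in 3 of 37 pubertal basal-marker cells, with 95.6% of the reads in 1 cell, and in 18 of 73 adult basal-marker cells (mean 43.4 CPM), all 18 among the 60 numbered 48 to 188. It was found in 7 of 25 pubertal (mean 10.0 CPM) and 6 of 28 adult progenitor-marker cells (34.6 CPM), and in 5 of 93 pubertal and 0 of 31 adult hormone-sensing-marker cells. Bmp7 was spread over 16 of 73 adult basal-marker cells (mean 23.4 CPM), 1 of 28 adult progenitor-marker cells with 1 read, and 0 of 31 adult hormone-sensing-marker cells. At puberty Bmp7 was found in 7 of 37 basal-marker cells (5.41 CPM) and 6 of 93 hormone-sensing-marker cells (7.63 CPM). By share, Bmp7 was thus found in 18.9% of pubertal basal-marker and 5.93% of pubertal luminal-marker cells, whereas the luminal-marker mean was the higher (6.95 and 5.41 CPM) through 1 cell with 43.9% of its reads, without which it was 3.93 CPM. The 4 cells with Tgfb1 were luminal-marker or mixed-marker cells, and no Tgfb1 read was seen in 110 basal-marker cells.

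**Figure D4:**
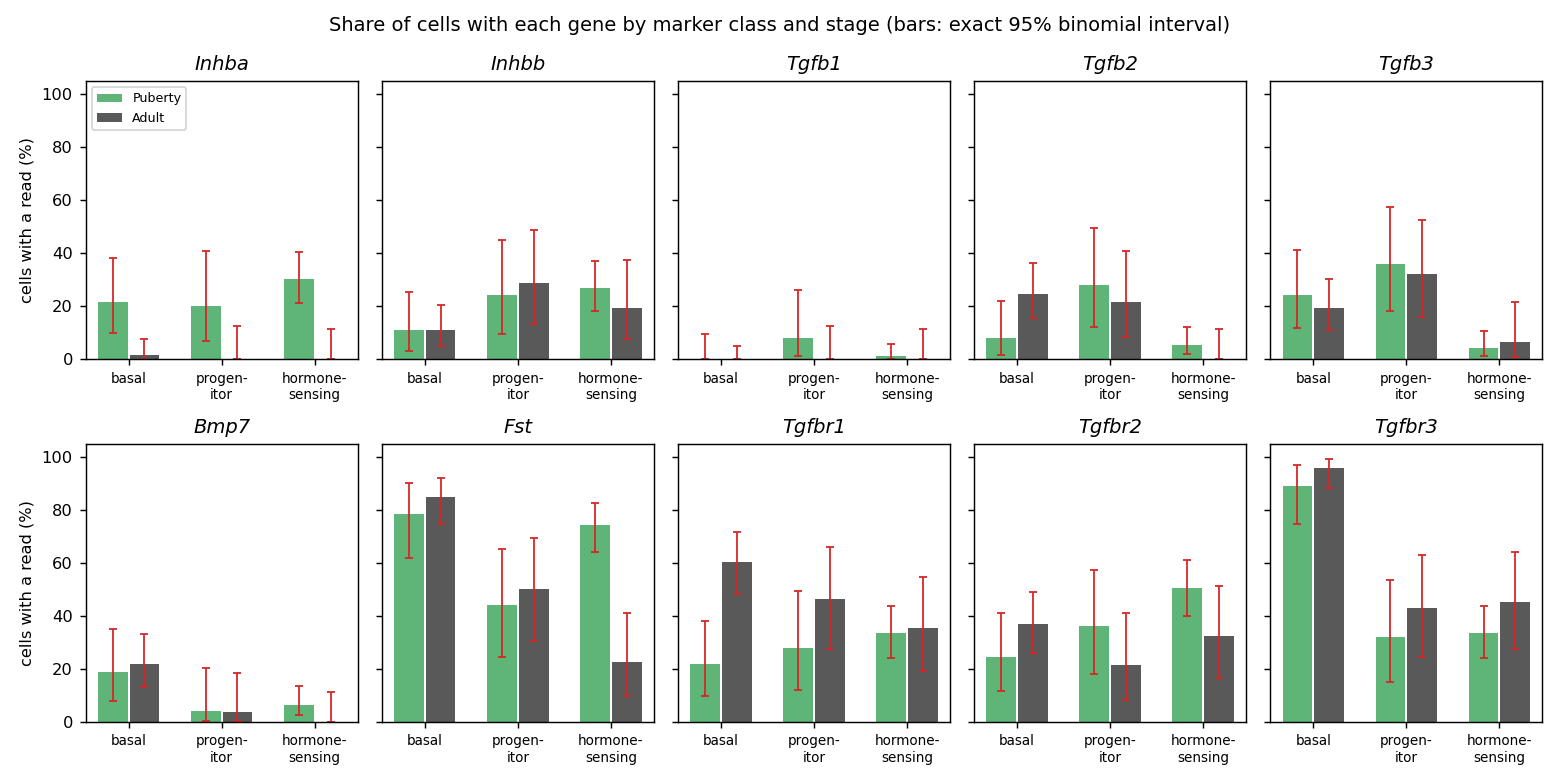
Share of cells with at least 1 read of each member by marker class, with green bars for pubertal and dark bars for adult cells and red lines for the exact 95% binomial interval. In hormone-sensing-marker cells Fst is found in 74.2% of pubertal and 22.6% of adult cells with intervals that do not overlap, in basal-marker cells Tgfbr1 is found in 21.6% and 60.3%, and Tgfbr3 is detected in most basal-marker cells of both stages.

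Within the hormone-sensing-marker class, 6 of 9 members tested were at least 2-fold higher at puberty (Inhba, Inhbb, Tgfb2, Bmp7, Fst and Tgfbr1), where 35.9% of 10502 genes were, and 0 in the adult, where 18.4% were. Against the 19 hormone-sensing-marker cells among the other adult cells, the same 6 were higher at puberty (41.3% of 11259 genes) and 0 in the adult (20.3%). Against the 12 numbered 48 to 188, Inhbb (14.6 and 9.17 CPM) and Tgfbr1 (63.3 and 39.2 CPM) were less than 2-fold apart. Like Inhba, Tgfb2 and Bmp7 had no read in the adult cells of the class and passed the filter through pubertal cells only. Most of their pubertal reads lay in few cells, with single cells at 1230 CPM of Tgfb2 and at 360 and 240 CPM of Bmp7. The next cells with Tgfb2, at 120 and 50 CPM, had 9 and 8 fibroblast markers. The class held a median of 2902 genes per cell at equal depth at puberty and 2193 in the adult, and the part of this in the result was not tested. Within basal-marker cells, 3 of 9 were at least 2-fold higher at puberty (Inhba, Tgfb3 and Tgfbr3; 27.0% of 11175 genes) and 4 in the adult (Inhbb, Bmp7, Tgfbr1 and Tgfbr2; 24.6%). In the 13 adult basal-marker cells outside the numbers 48 to 188, Inhbb was at 0 and Tgfbr1 at 13.8 CPM. Both were below the pubertal means of 5.95 and 59.5 CPM, so the direction of these genes turned with the adult set. In these 13 cells Bmp7 was at 7.69 CPM, less than 2-fold above its pubertal 5.41 CPM, and Tgfbr2 at 26.2 CPM against 11.4 CPM. Without the highest adult cell of each gene, Inhbb (9.58 CPM) and Tgfbr2 (20.6 CPM) were less than 2-fold above puberty. Bmp7 (12.8 CPM) and Tgfbr1 (144 CPM) were not. The Tgfbr2 cell had 10 fibroblast markers. The highest pubertal cells, which were kept, held 59.1% of the Inhbb and 35.7% of the Tgfbr2 pubertal reads of the class. Within progenitor-marker cells, Inhba and Tgfbr3 were at least 2-fold higher at puberty (35.2% of 10023 genes) and Tgfb2 in the adult (26.6%), but without 1 adult cell at 670 CPM the adult mean of Tgfb2 was 11.1 CPM against 10.0 CPM at puberty. Without 1 pubertal cell at 1760 CPM the pubertal mean of Tgfbr3 was 28.3 CPM, against 43.2 CPM in the adult, so its 2-fold difference rested on that cell. Tgfb1, with 3 reads at puberty and 0 in the adult, was at the floor, and no difference was read from it.

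Fst was detected in 69 of 93 pubertal hormone-sensing-marker cells (74.2%, median 110 CPM, highest 15900 CPM) and in 7 of 31 adult ones (22.6%, median 0, highest 850 CPM). The means were 618 and 57.1 CPM (10.8-fold, counting interval 9.32 to 12.7). The adult cells split again by number, with 6 of 12 cells in the range 48 to 188 (147 CPM) and 1 of 19 outside it (1 read). In basal-marker cells, by contrast, Fst was found in 29 of 37 pubertal and 62 of 73 adult cells with similar means of 607 and 656 CPM, although 58 of the 60 basal-marker cells numbered 48 to 188 had it and only 4 of the 13 others.

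Progenitor-marker cells held less Fst (54.8 CPM at puberty, 98.6 CPM in the adult) than basal-marker cells at either stage. Over both stages Fst was 6.13-fold higher in hormone-sensing-marker than in progenitor-marker cells, a comparison in which 30.6% of genes were at least 2-fold higher in the former class, of which 93 of 124 cells were pubertal. In the adult alone the order was the opposite, with 57.1 CPM in hormone-sensing-marker and 98.6 CPM in progenitor-marker cells. Over both stages, Inhba and Tgfbr2 lay on the hormone-sensing-marker side by 8.10-fold and 5.68-fold. At puberty, antagonist, activin subunit and TGF-β type II receptor were all found in the hormone-sensing-marker class. Fst was not particular to that class, as pubertal basal-marker cells held a mean of 607 CPM.

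Tgfbr2 was detected in 47 of 93 pubertal (50.5%, mean 143 CPM, highest 1770 CPM) and 10 of 31 adult hormone-sensing-marker cells (32.3%, mean 199 CPM, highest 2780 CPM); 1 adult cell held 45.0% of that class's adult reads. Basal-marker cells had it in 9 of 37 and 27 of 73 cells but at means of 11.4 and 29.9 CPM. Over both stages the luminal-marker mean was 5.02-fold higher (counting interval 4.41 to 5.73). The share of cells did not follow the level at both stages. At puberty 56 of 118 luminal-marker cells had Tgfbr2, a larger share than in basal-marker cells. In the adult the basal-marker share was larger than that of progenitor-marker (6 of 28) or hormone-sensing-marker cells.

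Tgfbr1 was even across the pubertal classes, with 8 of 37 basal-marker (59.5 CPM), 7 of 25 progenitor-marker (32.8 CPM) and 31 of 93 hormone-sensing-marker cells (63.3 CPM). In the adult it was found in 44 of 73 basal-marker cells (60.3%, mean 172 CPM, highest 2250 CPM), against 13 of 28 progenitor-marker (36.4 CPM) and 11 of 31 hormone-sensing-marker cells (18.7 CPM). Adult basal-marker cells numbered 48 to 188 had a mean of 207 CPM and the 13 others 13.8 CPM. Leaving out all adult cells 48 to 188, the 2.86-fold excess of basal-marker over luminal-marker cells was lost (log2 ratio -0.0048), so the basal-marker excess of Tgfbr1 rested on those cells.

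Tgfbr3 was the member detected in the largest share of basal-marker cells at both stages. It was found in 33 of 37 pubertal (89.2%, median 440 CPM, highest 12610 CPM) and 70 of 73 adult basal-marker cells (95.9%, median 220 CPM, highest 9020 CPM), including all 13 outside the numbers 48 to 188. In luminal classes it was found in 32.0% to 45.2% of cells with a median of 0. The basal-marker mean over both stages was 5.24-fold the luminal-marker mean (942 and 180 CPM, counting interval 5.04 to 5.46). Basal-marker cells held 2.17-fold more Tgfbr3 at puberty than in the adult (1467 and 676 CPM), while the means of hormone-sensing-marker cells were 224 and 237 CPM. The adult value of 237 CPM rested largely on 2 cells with at least 3 fibroblast markers (2900 and 3500 CPM). The other adult cells of that class were at 280 CPM or lower. It was also detected in 40 of the 44 cells with at least 3 fibroblast markers (mean 1188 CPM), and without those cells its log2 ratio of basal-marker over luminal-marker cells was 3.23, against 2.38 with them. Mixed-marker cells, which enter the stage means but no class comparison, also held it often (15 of 16 pubertal cells at a mean of 1408 CPM, 17 of 20 adult cells at 386 CPM).

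Ligand, antagonist and receptor were next read in the same cells. Of the 44 pubertal cells with Inhba, 40 also had Fst (90.9%, exact interval 78.3% to 97.5%), against 81 of the 127 cells without Inhba (63.8%, 54.8% to 72.1%). The mean Fst level was 985 CPM in the former and 378 CPM in the latter. The share differed in the same direction within cells 141 to 180 (20 of 21 and 9 of 14) and outside them (20 of 23 and 72 of 113), and within hormone-sensing-marker cells (26 of 28 and 43 of 65). The levels were less clear. Within cells 141 to 180 the mean of Fst was 657 CPM with Inhba and 801 CPM without, but the medians were 150 and 130 CPM. Outside that range the means were 1285 and 326 CPM, and the former was 620 CPM without the cell at 15900 CPM. Cells with Inhba had the greater depth given above, and its part was not tested.

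**Figure D5:**
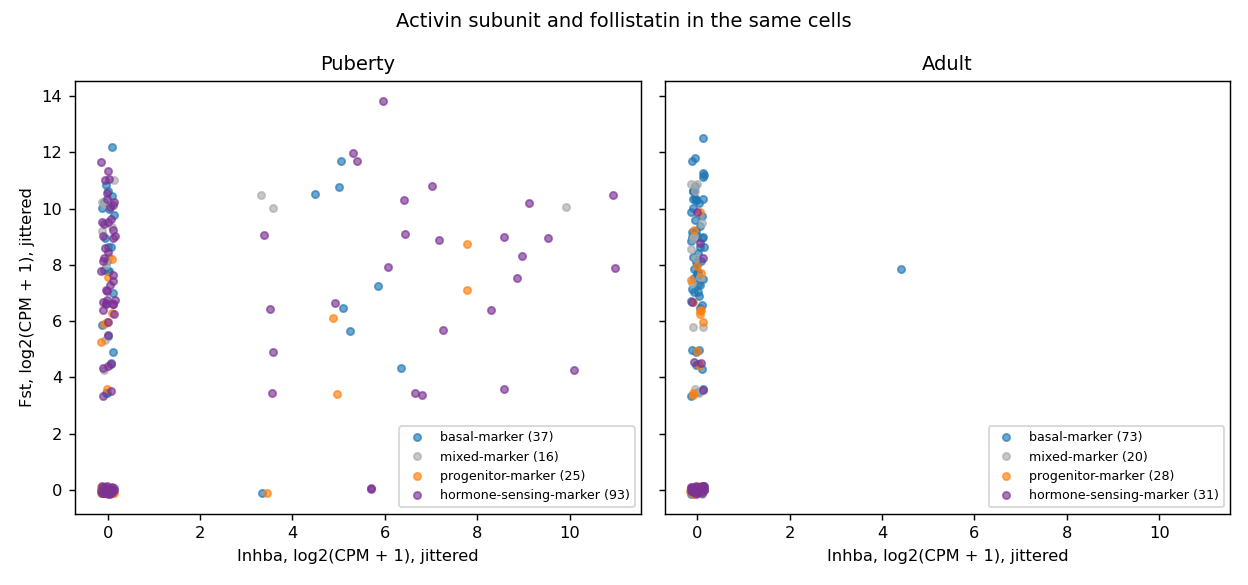
Inhba against Fst in each retained cell, both as log2(CPM + 1) with a small random shift for display, at puberty (left) and in the adult (right), coloured by marker class with the number of cells in brackets. At puberty 40 of the 44 cells with Inhba also have Fst and 28 are hormone-sensing-marker cells, whereas the adult panel holds 1 cell with Inhba.

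A receptor complex for activin was rarely seen in a cell. Acvr1b, its type I receptor, was found in 4 pubertal and 2 adult cells. Acvr2a, an activin type II receptor, was detected in 23 pubertal (13.5%, mean 14.6 CPM) and 41 adult cells (27.0%, mean 83.6 CPM, or 32.1 CPM without 1 basal-marker cell at 7860 CPM), and Acvr2b in 1 and 2 cells. Acvr1b together with either type II receptor was seen in 2 of 323 cells, both adult, and in none of the 97 cells with Inhba or Inhbb; with 1.86% of cells showing Acvr1b at all, absence of the pair from a cell was not detectable at this depth.

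Tgfbr1 and Tgfbr2 were found together in 57 of 323 cells (17.6%, exact interval 13.6% to 22.3%), 24 pubertal (14.0%) and 33 adult (21.7%), of which 27 were numbered 48 to 188. At least 1 of the TGF-β ligand genes was detected in 88 cells (36 pubertal, 52 adult). Ligand and the complete receptor pair shared a cell in 15 instances, 1 pubertal and 14 adult, and 13 of these 14 were numbered 48 to 188. Thus at puberty 35 of 36 cells with a TGF-β ligand lacked a read of Tgfbr1, of Tgfbr2 or of both. A BMP receptor pair (Bmpr1a or Bmpr1b with Bmpr2) was seen in 10 pubertal and 14 adult cells, and together with Bmp7 in 0 pubertal and 7 adult cells.

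The cells in which Tgfbr3 was found shared other genes. Over the 171 pubertal cells, the 5 of 7529 genes with the highest Spearman correlation to it across cells were Sparc (0.75), Pdpn (0.70), Fstl1 (0.68), Col4a1 (0.65) and Plpp3 (0.63). Over the 152 adult cells its nearest genes were Crispld2 (0.57), Ccnd2 (0.57), Sparc (0.56), Nrg1 (0.56) and Cacna2d1 (0.56). For Fst over the adult cells they were Vcan (0.61), Ccnd2 (0.59), Cadm1 (0.58), Krt17 (0.58) and Crispld2 (0.57), of which Krt17 is one of the basal class markers and Crispld2 and Ccnd2 are shared with Tgfbr3. Fst and Tgfbr3 themselves correlated at 0.51 in the adult and 0.17 at puberty. These points share class, capture and reads from a common library preparation, and the values are descriptions.

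For Inhba, the closest genes over pubertal cells were Ss18l1 (0.50), Taf9b (0.47), Septin9 (0.46), Nme7 (0.46) and Unc119b (0.46). All 5 were found in a larger share of cells 141 to 180 than of the other pubertal cells. Ss18l1 was found in 45.7% and 2.21%, and Unc119b in 57.1% and 14.0%, while Nme7 had the smallest step (74.3% and 48.5%). For Inhbb, Tgfb3, Fst, Tgfbr1 and Tgfbr2 at puberty, the nearest gene of each correlated at 0.31 to 0.43, which is weak in counts this sparse.

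The remaining pathway genes were read from fixed lists. Of 13 TGF-β family targets, 12 passed the detection filter; 8 were at least 2-fold higher in basal-marker cells and 0 in luminal-marker cells (background 19.5% and 23.6%), with a median log2 ratio of 1.34. Within puberty alone there were 4 of 12 (Ccn2, Pmepa1, Id4 and Tagln; background 21.9%), and within the adult 6 of 11 (29.2%). Over both stages they included Ccn2 (also Ctgf), a matricellular growth factor (234 and 16.6 CPM), Id4 (64.2 and 6.10 CPM) and Id1 (94.5 and 22.7 CPM), which encode inhibitors of helix-loop-helix factors, and Pmepa1, which feeds back on TGF-β signalling (379 and 143 CPM). Tagln, a smooth muscle gene, is also a marker that defined the class and is no separate observation. Between the stages, 1 target was at least 2-fold higher at puberty (Cdkn2b; 20.6% of all genes) and 6 in the adult (14.1%), among them Ccn2, Id1, Id2, Junb and the class marker Tagln. In the other adult cells, Ccn2, Id2 and Junb were also at least 2-fold higher than at puberty (16.4% of all genes). Basal-marker cells made up 28.9% of those cells and 21.6% of pubertal cells, and their part in this difference was not tested.

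Of 10 genes that store or activate latent TGF-β, all passed the filter, 5 were at least 2-fold higher in basal-marker cells (19.5% of all genes) and 1 in luminal-marker cells (23.6%). Within puberty there were 6 in basal-marker cells (21.9%) and within the adult 3 (29.2%), a share near that of all genes. Ltbp2, a latent TGF-β binding protein family member, had means of 280 and 23.4 CPM and Thbs1, an activator of latent TGF-β, of 792 and 196 CPM, whereas Itgb6, the integrin subunit that activates TGF-β on epithelia, was on the luminal side (8.82 and 153 CPM). By stage, 3 were at least 2-fold higher in the adult (Ltbp2, Ltbp3 and Ltbp4; 14.1% of all genes) and 0 at puberty (20.6%). Ltbp4 was not so against adult cells 48 to 188 alone. Ltbp2 was found in 10.5% of pubertal and 60.5% of adult cells.

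Of 12 extracellular inhibitors other than follistatin, 6 passed the filter, 4 were at least 2-fold higher in basal-marker cells (19.5% of all genes) and 0 in luminal-marker cells (23.6%). They were Fstl1 (2553 and 1030 CPM), Fstl3 (10.5 and 1.58 CPM), which also binds activin, Sostdc1 (76.5 and 16.4 CPM) and Bambi, a decoy receptor (74.7 and 9.44 CPM). By stage, Fstl1 and Sostdc1 were at least 2-fold higher at puberty (20.6% of all genes) and Fstl3, Twsg1 and Bambi in the adult (14.1%), but of these only Sostdc1 was so against the other adult cells alone. Of the 11 activin and BMP receptors, 6 passed; Acvr1 (79.2 and 32.6 CPM) and Acvr2a (104 and 17.9 CPM) were at least 2-fold higher in basal-marker cells and Bmpr1a (114 and 236 CPM), Bmpr1b and Eng in luminal-marker cells. Without the cell at 7860 CPM the basal-marker mean of Acvr2a was 32.4 CPM, less than 2-fold above 17.9 CPM. Within the adult alone only Acvr2a was 2-fold apart in either direction (29.2% and 25.5% of all genes), and within puberty Eng was not counted. Without that cell the adult basal-marker mean of Acvr2a was 33.6 CPM. Adult progenitor-marker cells had a mean of 52.9 CPM, with 81.1% of the reads in 1 cell at 1200 CPM. By stage, Bmpr1b, Bmpr2 and Eng were higher at puberty (20.6% of all genes) and Acvr1 and Acvr2a in the adult (14.1%). The shares of all genes given for the inhibitors, by class and by stage, also apply to the receptors, signal transducers and other ligands. Among 14 signal transducers, 12 passed; Smad1 (106 and 30.0 CPM) and Smad6 were at least 2-fold higher in basal-marker cells over both stages and in the adult, whereas at puberty Smad1 was not and Smad6 was higher in luminal-marker cells, Smurf1 (27.6 and 66.6 CPM) was higher in luminal-marker cells, and Smad3 (9.12 and 43.5 CPM) and Smad4 (54.2 and 118 CPM) were higher in the adult than at puberty, Smad4 not at 2-fold against the other adult cells. Of 16 other genes listed as ligands, 2 passed in the comparison of classes, where Bmp3 was higher in luminal-marker cells, and 3 in that of the stages, where Bmp2 was higher at puberty (19.4 and 2.70 CPM). Bmp1, which encodes a protease despite its name, was found in 27.2% of cells.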

How the data were processed

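Per the labels, the authors mapped reads to mm10 and counted them per Entrez gene with featureCounts; versions and the use of strand are not given in the sources used here. The deposited values were raw counts of read pairs, in 1 file per cell, and a combined table held the same values. Of 27179 identifiers, 25275 matched a gene name (1.84% of read pairs did not), and 15 mitochondrial and 124 ribosomal protein genes were removed, leaving 25136. The 121 cells below 100000 read pairs or 1500 genes were left out, and no doublet caller was run; the study inspected the capture chambers by microscope.

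Counts were thinned to 100000 read pairs per cell and given as CPM with Python 3.11.15, numpy 2.4.6, pandas 2.3.3 and scipy 1.17.1. A cell was basal-marker or luminal-marker when the mean log2(CPM + 1) of 12 basal and of 8 luminal markers differed by more than 1, and luminal-marker cells were split by progenitor and hormone-sensing markers. Genes in at least 5% of the cells of either group were compared by mean CPM, with log2 ratios after adding 1 CPM to each mean. Shares above 0 carry exact Clopper-Pearson 95% intervals, for a share of 0 the limit is 3 counts of the total, and ratios exact conditional binomial intervals. The floor behind each "at least" was 3 reads summed over the group. RPKM used the lengths in the count files. With 1 sample per stage there was no test across samples, so the spread between animals is unknown.

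All 10 members were described. Pathway genes were named where found in at least 10% of retained cells and at least 2-fold apart, together with receptors and inhibitors of the members; a few below 10% (Bmp2, Eng, Smad6, Cdkn2b and others in the counts given) were named after their values were seen. The members and lists were chosen with earlier results of these data known. Alternatives covered thinning, cell and gene limits, class limits, scaling (edgeR 4.0.16 TMM, DESeq2 1.42.0 size factors, R 4.3.3), prior and cell subsets, and leaving out pubertal cells 141 to 180, or the highest cell of a class, was chosen after seeing the data. The procedure was tested on simulated data. Figures were drawn with matplotlib 3.10.9. 1 target gene is not reported here.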

Additional observations from a re-analysis of the deposited data

Results flagged for a closer look

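Member reads were also found in the 121 cells below the limits on depth and genes, which entered no comparison. In the 50 pubertal cells left out there were 79 reads of Inhba, 20 of Inhbb, 20 of Tgfb3, 15 of Bmp7, 1273 of Fst, 42 of Tgfbr1, 110 of Tgfbr2 and 577 of Tgfbr3 among 2342991 read pairs. In the 71 adult cells left out there were 4 reads of Inhba, 6 of Inhbb, 22 of Tgfb2, 13 of Tgfb3, 19 of Bmp7, 442 of Fst, 162 of Tgfbr1, 18 of Tgfbr2 and 1040 of Tgfbr3 among 2428723 read pairs. These counts stood above the 3 reads that a count of 0 allows. At puberty the highest cell for each gene held 63 of the 79 reads of Inhba, 15 of the 20 of Inhbb and 13 of the 15 of Bmp7. Inhba was found in 10 of 50 such cells at puberty and 2 of 71 in the adult, and Fst in 16 and 22.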

How the results depend on the processing

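1 member, Inhba, was at least 2-fold higher at puberty; this count was 4 against other adult cells only, 3 in basal-marker and 4 in luminal-marker cells. The count higher in the adult, 1 in the report, was 3 against adult cells 48 to 188 or in cells with 200000 read pairs and 2500 genes, 2 with TMM scaling or DESeq2 size factors, 4 in basal-marker cells, and 0 against other adult cells, with a prior of 10 CPM, in luminal-marker cells or without pubertal cells 141 to 180. The log2 ratio of Tgfb2 turned to 0.14 against other adult cells. TMM and DESeq2 scaling each moved log2 ratios of puberty over adult by -0.12. The basal-marker count of 5 was 2 in pubertal cells or without adult cells 48 to 188, and 3 with a prior of 10 CPM or classes from 4 keratins; the luminal-marker count of 2 was 1 in adult cells. Reversed log2 ratios of basal-marker over luminal-marker cells were -0.31 for Bmp7 (pubertal cells), 0.35 for Inhba (adult cells) and -0.0048 for Tgfbr1 (without adult cells 48 to 188). The Inhba share of 25.7% was 15.2% at 5 or more reads and 16.9% without pubertal cells 141 to 180. The share with Tgfbr1 and Tgfbr2, 17.6%, was 23.5% before thinning and 6.50% at 5 or more reads. Beyond those subsets the cause was not tested. No paired analysis was possible because each stage is 1 sample and the labels tie no cell to an animal or run. Depth limits members at few reads: 1 read is 10 CPM.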
